A study of Mus musculus with 12 samples.

Results

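The mitochondrial carriers of solute carrier family 25 were followed across the 4 groups of the series by taking every listed gene whose symbol is Slc25a and a number. This rule took 44 of the 14159 listed genes. Most proteins of this family lie in the inner mitochondrial membrane and exchange metabolites, nucleotides, phosphate or cofactors between the cytosol and the matrix, while a few members lie in the outer mitochondrial membrane or in peroxisomes. In fat cells they carry acylcarnitines to oxidation, ADP and phosphate to ATP synthesis, citrate to lipid synthesis in the cytosol, and the malate and aspartate of the shuttle that brings reducing equivalents into mitochondria. The uncoupling proteins of thermogenic fat belong to the same family under other symbols.

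The series measured polyadenylated RNA of bulk inguinal white adipose tissue (iWAT) in mice on a C57BL/6 background. Atf4AKO mice lack the transcription factor ATF4 in adipocytes, because Cre recombinase driven by the Adiponectin promoter (Adipoq-Cre) acts on a floxed Atf4 gene (Atf4 flox/flox), and Atf4WT mice are littermates with the same floxed gene. Each genotype was sampled at room temperature (RT) and after 24 h of cold, with 3 libraries in each of the 4 groups. The comparisons ask which carriers change with cold in each genotype, which differ between the genotypes, and whether the cold response differs between them. The ages and sexes of these mice are not given in the labels or in the methods, and the other cells of the tissue keep the floxed gene uncut. The 12 libraries held 25719476 to 29105147 reads in the listed genes. Values are normalized counts as the authors deposited them, 3 values of a group are those of replicates 0, 1 and 2, and differences are log2 differences of the normalized count plus 1 with their limma test. A carrier was called with cold, or for a difference of the cold responses, at an adjusted p under 0.05, and between the genotypes at a fold change over 1.5 with an unadjusted p under 0.05.

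The targeted gene was read first. Atf4 stood at 5669, 4670.3 and 4107 normalized counts in the Atf4WT libraries and 1594, 1469.7 and 1639 in the Atf4AKO libraries at RT, and 7644, 7511 and 5756 (Atf4WT) and 1578, 788 and 1179.8 (Atf4AKO) after cold. The Atf4AKO libraries lay under all Atf4WT libraries of the same temperature, so no library went against its genotype label. The Atf4AKO libraries were lower by a log2 difference of -2.60 after cold (adjusted p = 6.44e-04, 3 of 3 libraries) and -1.61 at RT (adjusted p = 0.0762, 3 of 3 libraries). All 8 white adipocyte markers were listed, with a summed level of 967023 to 1440380. Fabp4 was the most abundant by its mean over the 12 libraries, but Cfd lay above it in each Atf4AKO RT library. The most abundant marker of the other cell lists is also given by this mean, and another marker can lead in single libraries. All 6 thermogenic adipocyte markers were called higher after cold in each genotype. Their sum went from 6553 to 9311 over the RT libraries to 105494 to 169948 over the cold libraries. Ucp1 was the most abundant in each cold library, while Cidea and Cox8b lay above it in each RT library. None of the 5 epithelial markers was listed, and 2 of 5 erythroid markers were, with sums of 218 to 474. Of 4 endothelial markers, all were listed, with sums of 12992 to 17408 and Pecam1 as the most abundant.

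Some libraries stood apart in markers of other cells. The 6 listed skeletal muscle markers of 10 (Ckm, Myh2, Myh4 and Pvalb were not listed) summed to 459, 848 and 112938 in Atf4WT and 203, 143 and 376 in Atf4AKO at RT, and 38299, 157 and 265 in Atf4WT and 103, 4037 and 83.8 in Atf4AKO after cold, with Acta1 as the most abundant. Replicate 2 of Atf4WT at RT, replicate 0 of Atf4WT after cold and replicate 1 of Atf4AKO after cold thus held the most muscle RNA of their groups, and the Atf4AKO RT libraries held little. The 9 listed B cell markers of 10 (Fcer2a was not listed) summed to 118, 96.2 and 3976 in Atf4WT and 503, 83.6 and 174 in Atf4AKO at RT, and 3891, 8187 and 13526 in Atf4WT and 328, 78.2 and 92.4 in Atf4AKO after cold, with Cd79a as the most abundant. The 9 listed T cell markers of 10 (Trac was not listed) summed to 202, 157 and 607 in Atf4WT and 281, 247 and 671 in Atf4AKO at RT, and 767, 5234 and 6389 in Atf4WT and 361, 152 and 179 in Atf4AKO after cold, with Lck as the most abundant. All 9 tested markers of each list were called higher after cold in Atf4WT and not in Atf4AKO by limma, and all 9 of each were called lower in Atf4AKO than in Atf4WT after cold. The difference of their cold responses passed for 0 of 9 B cell and 0 of 9 T cell markers by limma (9 and 9 at an unadjusted p under 0.05), for 0 and 0 by edgeR and for 0 and 7 by DESeq2. All 18 differences lay below 0 by each tool. Macrophage markers (6 of 7 listed, Cd68 not listed, C1qb the most abundant) summed to 18718, 15615 and 19956 in Atf4WT and 28338, 14456 and 17655 in Atf4AKO at RT, and 16522, 5495 and 15331 in Atf4WT and 14767, 2883 and 17748 in Atf4AKO after cold. Fibroblast markers (3 of 3 listed, Dcn the most abundant) summed to 45864, 39875 and 49915 in Atf4WT and 59213, 37796 and 45169 in Atf4AKO at RT, and 30614, 11764 and 24992 in Atf4WT and 25922, 9080.1 and 29939 in Atf4AKO after cold. Replicate 1 of each cold group was low in both stromal lists. The carrier results are therefore given also without the 3 libraries highest in muscle markers and without the 2 libraries lowest in stromal markers, choices made after seeing the data, and the part of these cells in the results was not tested. In bulk tissue, fewer cells of a type and less RNA per cell cannot be told apart.

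The carriers differed widely in level. Per kb of annotated exon, the citrate carrier Slc25a1 had the highest mean level over the 12 libraries, 23235 normalized counts per kb. It was followed by the adenine nucleotide carrier Slc25a5 (12027 per kb), the dicarboxylate carrier Slc25a10 (9924 per kb) and the phosphate carrier Slc25a3 (9646 per kb). A second tier held the glutathione carrier Slc25a39 (4772 per kb), the adenine nucleotide carrier Slc25a4 (4758 per kb) and the acylcarnitine carrier Slc25a20 (4363 per kb). Slc25a1 was the highest carrier in each of the 12 libraries, and Slc25a5 lay above Slc25a3 in each of them, while the order of Slc25a10 against these 2 varied between libraries. Slc25a20 and Slc25a39 lay under Slc25a4 in the 6 RT libraries and above it in the 6 cold libraries.

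The summed level of the 44 carriers, taken per kb, was 75346, 74406 and 55765 normalized counts per kb in Atf4WT and 83231, 88484 and 67320.1 in Atf4AKO at RT, and 100261, 95011 and 89638 in Atf4WT and 100975, 107021 and 115766 in Atf4AKO after cold. Every cold library lay above every RT library. The carriers' share of all normalized counts was 0.509% ± 0.0562 in Atf4WT and 0.569% ± 0.0493 in Atf4AKO at RT, and 0.695% ± 0.0117 and 0.735% ± 0.0468 after cold (SD, n = 3 per group). The sum was spread over more carriers after cold: Slc25a1, Slc25a5, Slc25a10 and Slc25a3 together held 65.0% ± 3.49 of it in Atf4WT and 69.1% ± 2.03 in Atf4AKO at RT, and 58.7% ± 1.12 and 59.0% ± 4.80 after cold. Slc25a1 alone held 27.7% (Atf4WT) and 32.6% (Atf4AKO) at RT and 24.0% and 23.2% after cold. Slc25a20 held 2.68% and 2.43% at RT and 6.56% and 6.95% after cold. These sums and shares are descriptions without a test.

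**Figure D1:**
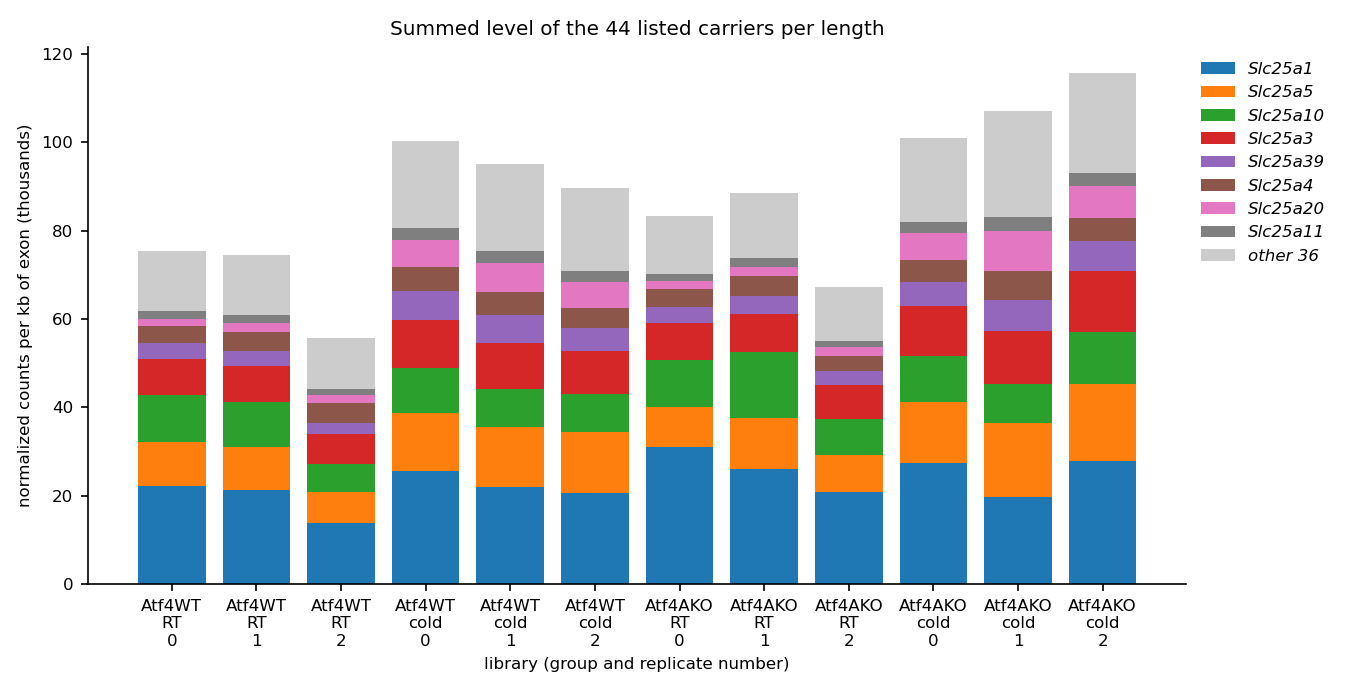
Summed level of the 44 carriers in each library as normalized counts per kb of exon, with the 8 carriers of the highest mean level in colour and the other 36 in grey. The 6 cold libraries reach 89638 to 115766 per kb and the 6 RT libraries 55765 to 88484 per kb.

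The test took in genes whose average over the 12 libraries reached 10 normalized counts, and 40 of the 44 carriers did. The basic amino acid carrier Slc25a2, the glutamate carrier Slc25a18, the oxodicarboxylate carrier Slc25a21 and Slc25a43 lay under this limit, with 1 to 17 reads per library, and are left out of the counts of calls. The adenine nucleotide carrier Slc25a31, the ATP-Mg/phosphate carrier Slc25a41 and the NAD carrier Slc25a52 were not listed at all. The 44 genes lie on 19 chromosomes, 4 of them on X, so they are not a cluster in the genome. For 11 carriers annotated exons overlap another gene, on the opposite strand for 10 of them, with the largest overlap between Slc25a35 and Rangrf (22.3% of the exon bases of Slc25a35). The others include Slc25a33, Slc25a25, Slc25a46, Slc25a21, Slc25a37, Slc25a23, Slc25a10 and Slc25a26, and Slc25a51 holds a small RNA gene on its own strand. The libraries were strand-specific but the strand setting of the counting is not stated, so a share of the reads of these genes may belong to the overlapping gene. Slc25a5 also has 1 named pseudogene in the annotation.

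Cold raised a large share of the family in both genotypes. In Atf4WT, 15 of the 40 tested carriers were called higher after cold (37.5%), beside 17.0% of all genes tested, and 1 carrier, Slc25a23, was called lower, beside 14.9% of all genes. In Atf4AKO, 16 carriers were called higher (40%), beside 14.8% of all genes, and 0 lower, beside 11.0% of all genes. The count of 0 is that of limma; 0 carriers were lower at an unadjusted p under 0.05, and edgeR and DESeq2 also called 0. The 14 carriers called higher in both genotypes were Slc25a34, Slc25a20, Slc25a17, Slc25a42, Slc25a51, Slc25a39, Slc25a28, Slc25a22, Slc25a5, Slc25a46, Slc25a11, Slc25a3, Slc25a15 and Slc25a44, beside 11.3% of all genes called higher in both. Among carriers called in 1 genotype are Slc25a33 (Atf4WT) and Slc25a4 (Atf4AKO), and the cold response of neither passed the test for a difference between the genotypes. At a fold change over 1.5 with an unadjusted p under 0.05 instead, 10 carriers were higher in Atf4WT (beside 10.9% of all genes) and 13 in Atf4AKO (beside 8.30%), and limma called 0 lower in Atf4WT (beside 10.3%; 1 at an unadjusted p under 0.05, and edgeR and DESeq2 each called 1 at an adjusted p under 0.05) and 0 lower in Atf4AKO (beside 8.92%). At an unadjusted p under 0.05 alone, 17 were higher and 1 lower in Atf4WT (beside 22.9% and 20.6% of all genes), and 23 were higher and 0 lower in Atf4AKO (beside 20.7% and 18.3%). The median log2 difference of the 40 carriers was 0.37 in Atf4WT and 0.36 in Atf4AKO, beside 0.00 and -0.03 over all 13404 genes tested. Differences above 0 were found for 34 carriers in Atf4WT (85%, beside 50.2% of all genes) and for 31 in Atf4AKO (77.5%, beside 46.9%).

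The libraries themselves separated for many carriers. In Atf4WT all cold libraries lay above all RT libraries for 19 of the 40 carriers, beside 23.9% of all genes tested, and below them for 2 carriers, Slc25a24 and Slc25a23, beside 22.9%. In Atf4AKO the cold libraries lay above the RT libraries for 19 carriers, beside 21.7% of all genes, and below for 0, beside 19.9%. The cold differences of the genotypes share no library, and across the 40 carriers they had a Pearson r of 0.962 and a Spearman rho of 0.879, a description over genes that are not independent of each other, in which Slc25a34 lies far from the rest. Without the 3 muscle-marker libraries, 10 carriers were called higher in Atf4WT and 14 in Atf4AKO, with medians of 0.27 and 0.37. Over all 13404 genes, 1852 and 1268 were called higher in that fit, against 2273 and 1988 with all libraries. The carriers lost in Atf4WT were Slc25a33 (log2 0.75), Slc25a28 (0.27), Slc25a5 (0.47), Slc25a3 (0.32), Slc25a15 (0.37) and the lower Slc25a23 (-0.38), and those lost in Atf4AKO include Slc25a4 (0.32), each with the same sign as before. Without the 2 libraries low in stromal markers, 13 carriers were called higher in each genotype, with medians of 0.35 and 0.37, beside 1599 (Atf4WT) and 1245 (Atf4AKO) of all genes. Slc25a33 (0.84) and Slc25a28 (0.34) were lost in Atf4WT, and those lost in Atf4AKO include Slc25a4 (0.32) and Slc25a15 (0.46). Of the Atf4AKO libraries, both choices left out replicate 1 after cold alone. In Atf4AKO they therefore give the same differences and cannot be told apart.

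**Figure D2:**
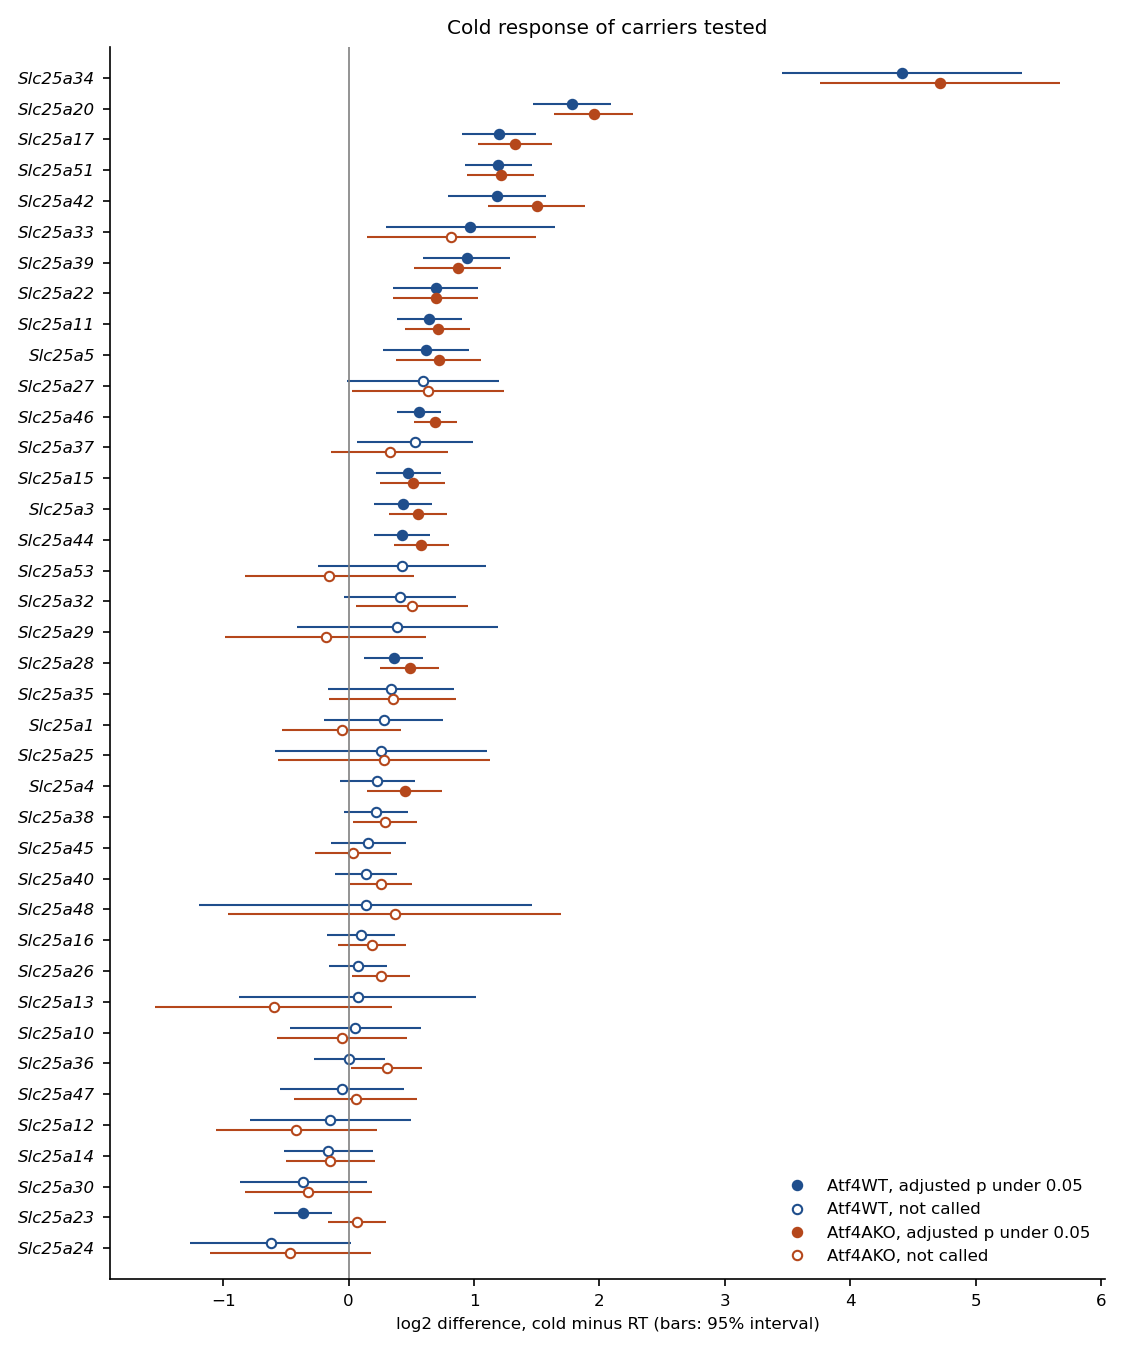
Log2 difference of cold minus RT for 39 of the 40 tested carriers in Atf4WT (blue) and Atf4AKO (red), with 95% intervals from limma and filled points for an adjusted p under 0.05. Slc25a34 and Slc25a20 lie far to the right in both genotypes, and the point furthest to the left in Atf4WT is Slc25a24 at -0.62, which was not called.

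The largest cold difference of the family was that of Slc25a34, a carrier whose substrate is not established. It stood at 59.7, 47.2 and 74.2 normalized counts in the Atf4WT libraries and 32.5, 35.8 and 105 in the Atf4AKO libraries at RT, and 1183, 1655 and 1080.2 (Atf4WT) and 873, 2209 and 1230.3 (Atf4AKO) after cold. The cold libraries lay far above the RT libraries in both genotypes, with replicate 1 the highest of each cold group and a wide spread among the Atf4AKO libraries at RT, where replicate 2 was the highest. Between cold and RT, Slc25a34 differed by log2 4.41 in Atf4WT (21.3-fold, adjusted p = 9.30e-05) and 4.72 in Atf4AKO (26.3-fold, adjusted p = 7.16e-05), with 3 of 3 cold libraries higher in each genotype. Per kb of exon Slc25a34 went from 22.6 ± 5.06 to 489 ± 115 normalized counts in Atf4WT and from 21.6 ± 15.3 to 538 ± 259 in Atf4AKO (SD, n = 3), so after cold its level per length was still under that of Slc25a20.

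Slc25a20, which brings acylcarnitines into the matrix for oxidation, stood at 3136, 3582 and 2986 normalized counts (Atf4WT) and 2991, 3902 and 3368 (Atf4AKO) at RT, against 11136, 11775 and 10389 (Atf4WT) and 11011, 16307 and 12760.4 (Atf4AKO) after cold. All cold libraries lay above all RT libraries, with replicate 1 the highest in each of the 4 groups. For Slc25a20 the test gave log2 1.78 in Atf4WT (3.44-fold, adjusted p = 3.72e-05) and 1.95 in Atf4AKO (3.88-fold, adjusted p = 1.87e-05), with 3 of 3 cold libraries higher in each genotype. Enzymes on the same route were also called higher in both genotypes: Cpt1b, the muscle-type carnitine palmitoyltransferase of the outer membrane, with log2 differences of 2.91 and 3.79 (Atf4WT and Atf4AKO), Cpt2 of the inner membrane with 0.56 and 0.53, and carnitine acetyltransferase Crat with 0.45 and 0.55. Cpt1a, the other outer membrane form, was called lower in Atf4WT (-0.41) and not in Atf4AKO (-0.35, adjusted p = 0.0619), and its difference of the cold responses was 0.06 (adjusted p = 0.9992).

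Promoter sequences are shown for the 2 carriers with the largest cold differences and for 2 that hold a motif searched for. RefSeq promoter sequences (build GRCm38.p6, from 250 bases before to 50 after the start) were found for 34 of the 44 carriers, in 44 windows. On both strands 4 motifs were searched: TGATGCAA, the composite element read by ATF4 dimers, in 0 carriers and 0.895% of all 32851 promoters; TGACGTCA, the cAMP response element, in 2 carriers and 1.79% of all; TCAAGGTCA, an estrogen-related receptor element, in 0 carriers and 0.423% of all; and GCGCATGC, a core of the NRF1 site, in 0 carriers and 2.71% of all. The carriers with TGACGTCA, in 2 of the 44 windows, were Slc25a25 (150 bases before the start) and Slc25a36 (161 bases before the start). Neither was called with cold. The Slc25a25 window lies inside the annotated gene, whose 5′ end is at chr2:32451445, so this start is an internal one. A shorter string chosen after the values were seen, AAGGTCA, is part of the searched TCAAGGTCA. It was found in 1 of the 44 carrier windows, that of Slc25a34, and in 4.72% of all promoters. In Slc25a34 it lies 119 bases before the start, on the opposite strand, so that it reads TGACCTT. The sequences run 5′ to 3′ on the strand of the gene, stop where annotated exons begin, and carry motif matches in capitals; they are chr4:141623835-141624084 on the minus strand, chr9:108661886-108662087 on the plus strand with no match, and chr2:32424067-32424316 and chr9:97111158-97111291 on the minus strand. A match is a string of letters and was not tested as a binding site.
Slc25a34: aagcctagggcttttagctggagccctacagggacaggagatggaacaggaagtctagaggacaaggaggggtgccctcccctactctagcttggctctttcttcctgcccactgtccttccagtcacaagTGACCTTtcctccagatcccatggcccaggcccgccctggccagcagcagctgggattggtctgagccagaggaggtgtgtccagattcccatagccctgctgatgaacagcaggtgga
Slc25a20: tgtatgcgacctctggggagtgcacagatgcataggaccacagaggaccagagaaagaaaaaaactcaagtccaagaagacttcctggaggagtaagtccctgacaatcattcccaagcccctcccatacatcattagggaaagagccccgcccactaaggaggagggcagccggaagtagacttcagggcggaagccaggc
Slc25a25: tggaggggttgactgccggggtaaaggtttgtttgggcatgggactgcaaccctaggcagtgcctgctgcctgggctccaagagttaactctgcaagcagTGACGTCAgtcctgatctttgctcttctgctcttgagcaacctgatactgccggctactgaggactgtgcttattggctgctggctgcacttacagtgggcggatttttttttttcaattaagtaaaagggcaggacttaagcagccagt
Slc25a36: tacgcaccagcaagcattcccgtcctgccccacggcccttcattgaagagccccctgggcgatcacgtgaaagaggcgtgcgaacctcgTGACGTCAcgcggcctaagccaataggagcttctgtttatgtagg

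Among the carriers of cofactors, Slc25a42, Slc25a17 and Slc25a51 were called higher in both genotypes. Slc25a42, which brings coenzyme A into mitochondria, stood at 894, 937 and 815 normalized counts in the Atf4WT libraries and 859.8, 895 and 998 in the Atf4AKO libraries at RT, and 2048, 1963 and 1993 (Atf4WT) and 1793, 3099.7 and 3122 (Atf4AKO) after cold. The cold libraries lay above the RT libraries in both genotypes, and in Atf4AKO after cold replicate 0 lay under the other 2 replicates and under the Atf4WT libraries. Cold against RT gave Slc25a42 log2 1.18 in Atf4WT (2.27-fold, adjusted p = 8.31e-04) and 1.498 in Atf4AKO (2.83-fold, adjusted p = 2.78e-04), with 3 of 3 cold libraries higher in each genotype. Slc25a16, a related carrier linked to coenzyme A, was not called in either genotype (0.10 in Atf4WT, adjusted p = 0.567, and 0.19 in Atf4AKO, adjusted p = 0.289), and the ratio of the levels per kb of Slc25a42 to Slc25a16 went from 0.462 ± 0.0250 to 0.981 ± 0.0752 in Atf4WT and from 0.466 ± 0.0830 to 1.16 ± 0.223 in Atf4AKO (SD, n = 3, no test).

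Slc25a17, the peroxisomal carrier of coenzyme A, FAD and related cofactors, stood at 2022, 2365 and 1802 normalized counts (Atf4WT) and 2138, 2338 and 1739 (Atf4AKO) at RT, against 4704, 4771 and 4667 (Atf4WT) and 4456, 5881 and 5219.8 (Atf4AKO) after cold. Slc25a51, the NAD carrier of the inner membrane, stood at 5278, 5389 and 4527 normalized counts (Atf4WT) and 5359.8, 6813 and 5198 (Atf4AKO) at RT, against 12276, 11157 and 11221 (Atf4WT) and 11893, 13371 and 14912 (Atf4AKO) after cold. For both genes every cold library lay above every RT library in both genotypes. The Slc25a17 difference was log2 1.20 in Atf4WT (2.30-fold, adjusted p = 1.63e-04) and 1.32 in Atf4AKO (2.50-fold, adjusted p = 1.14e-04). The Slc25a51 difference was log2 1.19 in Atf4WT (2.29-fold, adjusted p = 1.06e-04) and 1.21 in Atf4AKO (2.32-fold, adjusted p = 1.09e-04). Each rested on 3 of 3 higher cold libraries in each genotype. The folate and FAD carrier Slc25a32 (0.41 in Atf4WT, adjusted p = 0.144, and 0.51 in Atf4AKO, adjusted p = 0.0882) was not called, but was in Atf4WT with a replicate block (0.41) or without cold replicate 0 (0.60), and in Atf4AKO with a replicate block, with only the groups compared or without Atf4WT cold replicate 1 (0.51 in each). The S-adenosylmethionine carrier Slc25a26 (0.07 in Atf4WT, adjusted p = 0.613, and 0.26 in Atf4AKO, adjusted p = 0.0893) was not called, but was in Atf4AKO with a replicate block (0.26).

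Slc25a5 and Slc25a3, carriers of the ATP cycle, were called higher in both genotypes, with smaller differences, and Slc25a4 was called in Atf4AKO. Slc25a5, an exchanger of ADP and ATP, stood at 12293, 12175 and 8669 normalized counts in the Atf4WT libraries and 11465, 14281 and 10505 in the Atf4AKO libraries at RT, and 16203, 16885 and 17110.2 (Atf4WT) and 17189.8, 20759 and 21432 (Atf4AKO) after cold. Slc25a3, which brings phosphate into the matrix, stood at 15673, 15634 and 13330.1 normalized counts in the Atf4WT libraries and 16444, 17161 and 15114 in the Atf4AKO libraries at RT, and 21094, 20213 and 18890.1 (Atf4WT) and 21904, 22975 and 26819.9 (Atf4AKO) after cold. For both genes the cold libraries lay above the RT libraries in each genotype, and replicate 2 of Atf4WT at RT, the library with the most muscle RNA, was the lowest of the 12. The Slc25a5 difference was log2 0.62 in Atf4WT (1.53-fold, adjusted p = 0.0118) and 0.72 in Atf4AKO (1.64-fold, adjusted p = 0.00674). The Slc25a3 difference was log2 0.43 in Atf4WT (1.35-fold, adjusted p = 0.0108) and 0.55 in Atf4AKO (1.47-fold, adjusted p = 0.00385). All 3 cold libraries of each genotype were higher, and as given above both Atf4WT calls were lost without the muscle-marker libraries. Slc25a4, the exchanger that predominates in muscle and heart, stood at 7333, 8668 and 8939 normalized counts (Atf4WT) and 8135, 8586 and 6802 (Atf4AKO) at RT, against 10525, 10187 and 8557 (Atf4WT) and 9496, 12649 and 10032 (Atf4AKO) after cold. Its Atf4WT groups overlapped, and its Atf4AKO cold libraries lay above the RT libraries. Its cold difference was log2 0.23 in Atf4WT (1.17-fold, adjusted p = 0.220) and 0.45 in Atf4AKO (1.36-fold, adjusted p = 0.0337), so that it was called in Atf4AKO (3 of 3 libraries higher) and not in Atf4WT. The difference between these responses was 0.22 (95% interval -0.21 to 0.64, not called). The Atf4AKO call was lost without replicate 0 (0.48) or 2 (0.35) at RT or without replicate 1 (0.32) or 2 (0.49) after cold, and with only the groups compared (0.45), and limma with array weights called Slc25a4 in Atf4WT too (0.33). Per kb, the ratio of Slc25a5 to Slc25a4 was 2.10 ± 0.553 and 2.39 ± 0.197 at RT and 2.69 ± 0.371 and 2.89 ± 0.391 after cold (Atf4WT and Atf4AKO, SD, n = 3, no test). In Atf4WT at RT it was 2.60, 2.18 and 1.51, the last being the lowest of the 12, in the library with the most muscle RNA. Slc25a4 was at its highest among the RT libraries there.

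Of the calcium-regulated ATP-Mg/phosphate carriers, Slc25a23 was singled out after its values were seen, as the one carrier that limma with group means alone called lower with cold. It stood at 4032, 3876 and 3805 normalized counts in the Atf4WT libraries and 3005, 3840.4 and 3452 in the Atf4AKO libraries at RT, and 3037, 3264 and 2829.9 (Atf4WT) and 3222, 4020.2 and 3537 (Atf4AKO) after cold. The Atf4WT cold libraries lay under the Atf4WT RT libraries, and the Atf4AKO groups overlapped. The difference was -0.36 in Atf4WT (adjusted p = 0.0230, 3 of 3 libraries lower) and 0.07 in Atf4AKO (adjusted p = 0.667). The Atf4WT call was lost without replicate 0 (-0.34) or 1 (-0.37) at RT and without replicate 0 (-0.36) or 2 (-0.31) after cold, and with the lymphocyte score as a covariate (-0.18). Slc25a24 (-0.62 in Atf4WT, adjusted p = 0.127, and -0.47 in Atf4AKO, adjusted p = 0.263) and Slc25a25 (0.26 in Atf4WT, adjusted p = 0.634, and 0.28 in Atf4AKO, adjusted p = 0.616) were not called, but with a replicate block Slc25a24 was called lower in Atf4WT as well (-0.62). Slc25a24 was at its lowest, 221 and 234 normalized counts, in replicate 1 of each cold group, the libraries low in stromal markers, and the part of stromal cells in this was not tested.

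Among the carriers of di- and tricarboxylates, 1 of 3 tested was called, higher in both genotypes, beside 11.3% of all genes. Slc25a11, which exchanges 2-oxoglutarate for malate in the malate-aspartate shuttle, stood at 2972, 3030.5 and 2557 normalized counts (Atf4WT) and 2994, 3369 and 2612 (Atf4AKO) at RT, against 4466, 4664 and 4222 (Atf4WT) and 4217, 5470.3 and 5025 (Atf4AKO) after cold. All cold libraries lay above all RT libraries in both genotypes. Slc25a11 rose by log2 0.64 in Atf4WT (1.56-fold, adjusted p = 0.00252) and 0.71 in Atf4AKO (1.64-fold, adjusted p = 0.00176), with 3 of 3 cold libraries higher in each genotype. Slc25a1, which exports citrate for fatty acid synthesis, stood at 37019, 35574 and 23052 normalized counts (Atf4WT) and 51557, 43633 and 34725 (Atf4AKO) at RT, against 42700.3, 36768 and 34488 (Atf4WT) and 45636, 32781 and 46588 (Atf4AKO) after cold. Its groups overlapped in both genotypes. The cold differences were 0.28 in Atf4WT, adjusted p = 0.351, and -0.05 in Atf4AKO, adjusted p = 0.874, so the carrier with the highest level of the family was not called with cold. The dicarboxylate carrier Slc25a10 also was not called (0.05 in Atf4WT, adjusted p = 0.891, and -0.05 in Atf4AKO, adjusted p = 0.890), with 12822 normalized counts in its lowest library, replicate 2 of Atf4WT at RT, and 29800.2 in its highest, replicate 1 of Atf4AKO at RT.

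Of the aspartate and glutamate carriers, the glutamate carrier rose and the aspartate/glutamate exchangers did not pass. Slc25a22, which carries glutamate with a proton, stood at 5174, 3851 and 3445 normalized counts (Atf4WT) and 4332, 4999 and 4481 (Atf4AKO) at RT, against 6794, 6771 and 6336 (Atf4WT) and 6048, 8147 and 8323 (Atf4AKO) after cold. The cold libraries lay above the RT libraries in each genotype, and replicate 0 of Atf4WT at RT was the highest of the 6 RT libraries. Slc25a22 rose by log2 0.70 in Atf4WT (1.62-fold, adjusted p = 0.00635) and 0.69 in Atf4AKO (1.62-fold, adjusted p = 0.00773), with 3 of 3 cold libraries higher in each genotype. Slc25a12, the exchanger known as aralar, stood at 236, 214 and 459 normalized counts in the Atf4WT libraries and 269.6, 168 and 218 in the Atf4AKO libraries at RT, and 243, 243 and 288 (Atf4WT) and 166, 121 and 205 (Atf4AKO) after cold. The cold and RT libraries overlapped in each genotype, and replicate 2 of Atf4WT at RT, the library with the most muscle RNA, was the highest of the 12. Slc25a13, the exchanger known as citrin, stood at only 23.9, 30.8 and 21.3 normalized counts in the Atf4WT libraries and 21.4, 26.9 and 23.2 in the Atf4AKO libraries at RT, and 24.7, 23.2 and 32.0 (Atf4WT) and 29.8, 6.80 and 17.2 (Atf4AKO) after cold. These groups overlapped as well, and replicate 1 of Atf4AKO after cold was the lowest library. The cold differences were -0.15 in Atf4WT, adjusted p = 0.729, and -0.42 in Atf4AKO, adjusted p = 0.316 for Slc25a12, and 0.07 in Atf4WT, adjusted p = 0.918, and -0.60 in Atf4AKO, adjusted p = 0.331 for Slc25a13. The cytosolic aspartate aminotransferase Got1 of the same shuttle was called higher with log2 differences of 2.30 and 2.52, the cytosolic malate dehydrogenase Mdh1 with 1.09 and 1.08 and the mitochondrial Mdh2 with 0.75 and 0.79 (Atf4WT and Atf4AKO), while the mitochondrial aminotransferase Got2 was not called (-0.25 and -0.43).

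Of the carriers of basic and branched-chain amino acids, 2 of 3 tested were called higher in both genotypes, beside 11.3% of all genes. Slc25a44, which carries branched-chain amino acids, stood at 3136, 3639.6 and 2941 normalized counts (Atf4WT) and 3055, 3559.6 and 3271 (Atf4AKO) at RT, against 3965, 4568 and 4479.8 (Atf4WT) and 4487, 5237 and 5068 (Atf4AKO) after cold. Its cold libraries lay above its RT libraries in both genotypes, by a narrow gap in Atf4WT. With cold it rose by log2 0.42 in Atf4WT (1.34-fold, adjusted p = 0.00944) and 0.58 in Atf4AKO (adjusted p = 0.00230). The ornithine carrier Slc25a15 differed by log2 0.48 in Atf4WT, adjusted p = 0.0112, and 0.51 in Atf4AKO, adjusted p = 0.00935. Both rested on 3 of 3 higher cold libraries in each genotype, and as given above the Slc25a15 calls were lost without the muscle-marker libraries (Atf4WT) and without the libraries low in stromal markers (Atf4AKO). The basic amino acid carrier Slc25a29 was not called (0.39 in Atf4WT, adjusted p = 0.441, and -0.18 in Atf4AKO, adjusted p = 0.742).

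In the glutathione pair, the abundant member moved. Slc25a39, which carries glutathione into the matrix, stood at 6007, 5694 and 4087 normalized counts in the Atf4WT libraries and 5988, 6717 and 5224 in the Atf4AKO libraries at RT, and 10728, 10501 and 8770.3 (Atf4WT) and 9341, 11885 and 11539 (Atf4AKO) after cold. All cold libraries lay above all RT libraries in both genotypes, and replicate 2 of Atf4WT at RT was the lowest of the 12. The rise of Slc25a39 was log2 0.94 in Atf4WT (1.92-fold, adjusted p = 0.00166) and 0.87 in Atf4AKO (1.83-fold, adjusted p = 0.00287), with 3 of 3 cold libraries higher in each genotype. Its paralog Slc25a40 was not called (0.14 in Atf4WT, adjusted p = 0.379, and 0.26 in Atf4AKO, adjusted p = 0.115). Per kb, the ratio of Slc25a39 to Slc25a40 was 27.7 ± 4.72 (Atf4WT) and 30.7 ± 5.75 (Atf4AKO) at RT and 48.0 ± 3.66 and 46.4 ± 3.31 after cold (SD, n = 3, no test).

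Of the iron carriers, Slc25a28 (mitoferrin 2) was called higher in both genotypes (0.36 in Atf4WT, adjusted p = 0.0260, and 0.49 in Atf4AKO, adjusted p = 0.00757, 3 of 3 libraries higher in each). Its Atf4WT call was lost without replicate 1 (0.30) or 2 (0.36) at RT and without replicate 0 (0.27) or 1 (0.34) after cold, with the lymphocyte score as a covariate (0.48) and with only the groups compared (0.36). Slc25a37 (mitoferrin 1) was not called (0.53 in Atf4WT, adjusted p = 0.0768, and 0.33 in Atf4AKO, adjusted p = 0.277); with all libraries it was called in Atf4WT with array weights (0.57), a replicate block or only the groups compared (0.53 in each), and with 1 library out it was called in Atf4WT without replicate 2 of Atf4WT at RT (0.68) or of Atf4AKO at RT (0.53), and in Atf4AKO without replicate 2 at RT (0.59). The glycine carrier of heme synthesis, Slc25a38, was not called (0.22 in Atf4WT, adjusted p = 0.178, and 0.29 in Atf4AKO, adjusted p = 0.0885), but was in Atf4AKO with array weights (0.32) or without replicate 2 at RT (0.40).

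Of the pyrimidine nucleotide carriers, Slc25a33 was called in Atf4WT (0.97, 1.96-fold, adjusted p = 0.0323, 3 of 3 libraries higher) and not in Atf4AKO (0.82, adjusted p = 0.0712). The difference between these responses was -0.15 (adjusted p = 0.997). The Atf4WT call was lost without replicate 0 (0.96) or 2 (0.76) at RT and without replicate 0 (0.96) or 1 (0.84) after cold, and a call in Atf4AKO was gained without replicate 1 at RT (1.13) or replicate 0 after cold (1.04). With all libraries, DESeq2 (0.79) and limma with a replicate block (0.82) called Slc25a33 in Atf4AKO as well. Slc25a36 was not called (0.01 in Atf4WT, adjusted p = 0.974, and 0.30 in Atf4AKO, adjusted p = 0.109), and was called in Atf4AKO without cold replicate 0 (0.43). The relatives of the uncoupling proteins Slc25a27, Slc25a14 and Slc25a30 were not called in either genotype: the differences were 0.59 in Atf4WT, adjusted p = 0.123, and 0.63 in Atf4AKO, adjusted p = 0.115 for Slc25a27, -0.16 and -0.15 for Slc25a14 and -0.36 and -0.32 for Slc25a30 (Atf4WT and Atf4AKO). Of these 3, Slc25a27 alone had an unadjusted p under 0.05, in Atf4AKO; without replicate 2 of Atf4AKO at RT limma called it in Atf4AKO (0.92), and with array weights and all libraries limma called it in both genotypes (0.71 in Atf4WT and 0.86 in Atf4AKO).

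Of the 7 tested carriers without a stated role, 2 were called higher in both genotypes, Slc25a34 and Slc25a46, beside 11.3% of all genes. Slc25a46, a protein of the outer mitochondrial membrane with a part in mitochondrial shape, stood at 2155, 2305 and 2063 normalized counts in the Atf4WT libraries and 2211, 2406 and 2195 in the Atf4AKO libraries at RT, and 3417, 3229 and 3000.3 (Atf4WT) and 3413, 3702 and 3902 (Atf4AKO) after cold. All cold libraries lay above all RT libraries. Slc25a46 rose by log2 0.56 in Atf4WT (1.48-fold, adjusted p = 6.47e-04) and 0.69 in Atf4AKO (1.62-fold, adjusted p = 2.44e-04), with 3 of 3 cold libraries higher in each genotype. The other 5 were Slc25a35 (0.34 and 0.35), Slc25a45 (0.16 and 0.03), Slc25a47 (-0.05 and 0.06), Slc25a48 (0.14 and 0.37) and Slc25a53 (0.42 and -0.15, each Atf4WT and Atf4AKO), which were not called. Over all roles, 22 carriers were called in neither genotype, and their log2 differences ran from -0.62 to 0.59 in Atf4WT and from -0.60 to 0.63 in Atf4AKO.

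**Figure D3:**
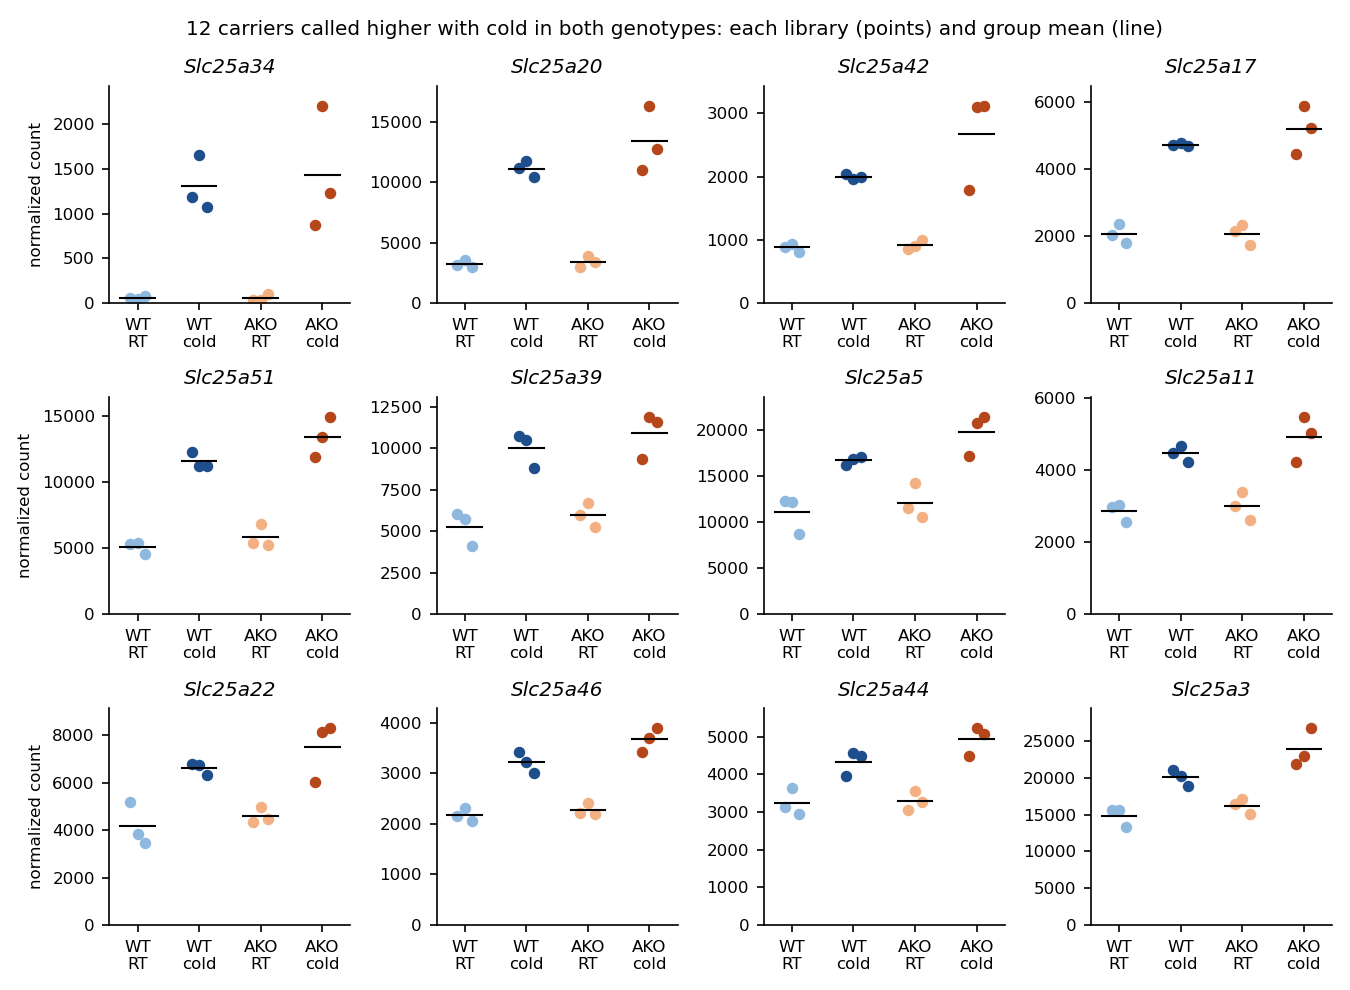
Normalized counts of the 12 carriers with the largest differences among those called with cold in both genotypes, 1 panel per gene, with each library as a point and the group mean as a line. In each panel the cold libraries of a genotype lie above its RT libraries; Slc25a34 starts from 32.5 to 105 normalized counts at RT.

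Between the genotypes fewer carriers passed than with cold. After cold, 0 of 40 carriers were called higher in Atf4AKO than in Atf4WT, beside 0.358% of all genes, and 1 was called lower, Slc25a12, beside 6.04% of all genes. These are limma calls; at an unadjusted p under 0.05 alone Slc25a46 (0.19), Slc25a3 (0.25) and Slc25a23 (0.24) were higher (3 carriers, beside 3.74% of all genes) and Slc25a12 lower (1 carrier, beside 7.98%), edgeR and DESeq2 called 0 carriers higher, edgeR called 0 lower, and DESeq2 called Slc25a12. At an adjusted p under 0.05, limma called 0 carriers higher (beside 0% of all genes) and 0 lower (beside 0.0298%), and the smallest adjusted p of a carrier was 0.362, that of Slc25a46 (0.19). The median difference of the carriers was 0.14 beside 0.05 over all genes, with 30 of 40 carriers above 0 (75%, beside 59.3% of all genes). At RT 0 carriers were called higher, beside 0.179% of all genes, and 0 lower, beside 0.283%, by limma; 0 had an unadjusted p under 0.05 (beside 0.761% of all genes higher and 0.768% lower), 0 an adjusted p under 0.05 (beside 0% and 0.00746%), and edgeR and DESeq2 also called 0. The smallest p at RT was 0.0596, for Slc25a1, which was higher in Atf4AKO by log2 0.45 (95% interval -0.02 to 0.93). Part of this difference rests on replicate 2 of Atf4WT at RT, the library with the most muscle RNA. Slc25a1 stood at 23052.5 normalized counts there, against 37019.2 and 35573.6 in the other Atf4WT RT libraries. Replicate 2 of Atf4AKO at RT (34724.8) lay under both of these. The median at RT was 0.03 beside 0.01 over all genes, and with 1 library left out it ran from -0.03 (without replicate 2 of Atf4WT at RT) to 0.10 (without replicate 1 of Atf4WT at RT), with -0.02 without replicate 1 of Atf4AKO at RT, so its sign depends on single libraries. Single libraries moved these counts: without replicate 2 of Atf4AKO at RT, Slc25a1 was called higher (0.60) and Slc25a34 lower (-0.78) at RT. After cold, Slc25a42 was called higher (0.64) and Slc25a13 (-1.20) and Slc25a53 (-0.85) lower without replicate 0 of Atf4AKO, Slc25a53 lower (-0.85) without replicate 0 of Atf4WT, and Slc25a29 lower (-0.79) without replicate 1 of Atf4AKO. Without the 3 muscle-marker libraries Slc25a29 was called lower (-0.98) after cold, and with the lymphocyte score as a covariate Slc25a33 was (-1.12), while Slc25a12 was no longer called in either case.

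In Slc25a12, whose values in each library are given above, the Atf4AKO cold libraries (166, 121 and 205 normalized counts) all lay under the Atf4WT cold libraries (243, 243 and 288). By limma the difference was -0.68 (1.60-fold lower, 95% interval -1.32 to -0.04, adjusted p = 0.388, 3 of 3 libraries lower). At RT the groups overlapped and the difference was -0.41 (adjusted p = 0.9999). The call was lost without replicate 0 (-0.72), 1 (-0.72) or 2 (-0.60) of Atf4WT after cold, without replicate 0 (-0.70) or 1 (-0.48) of Atf4AKO after cold, and without replicate 2 of Atf4AKO at RT (-0.68). It was also lost without the muscle-marker libraries (-0.52) and without the libraries low in stromal markers (-0.52). With the mean log2 value of the lymphocyte markers as a covariate the sign changed, to 0.47. These markers separate the genotypes after cold, and their part in the difference was not tested.

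**Figure D4:**
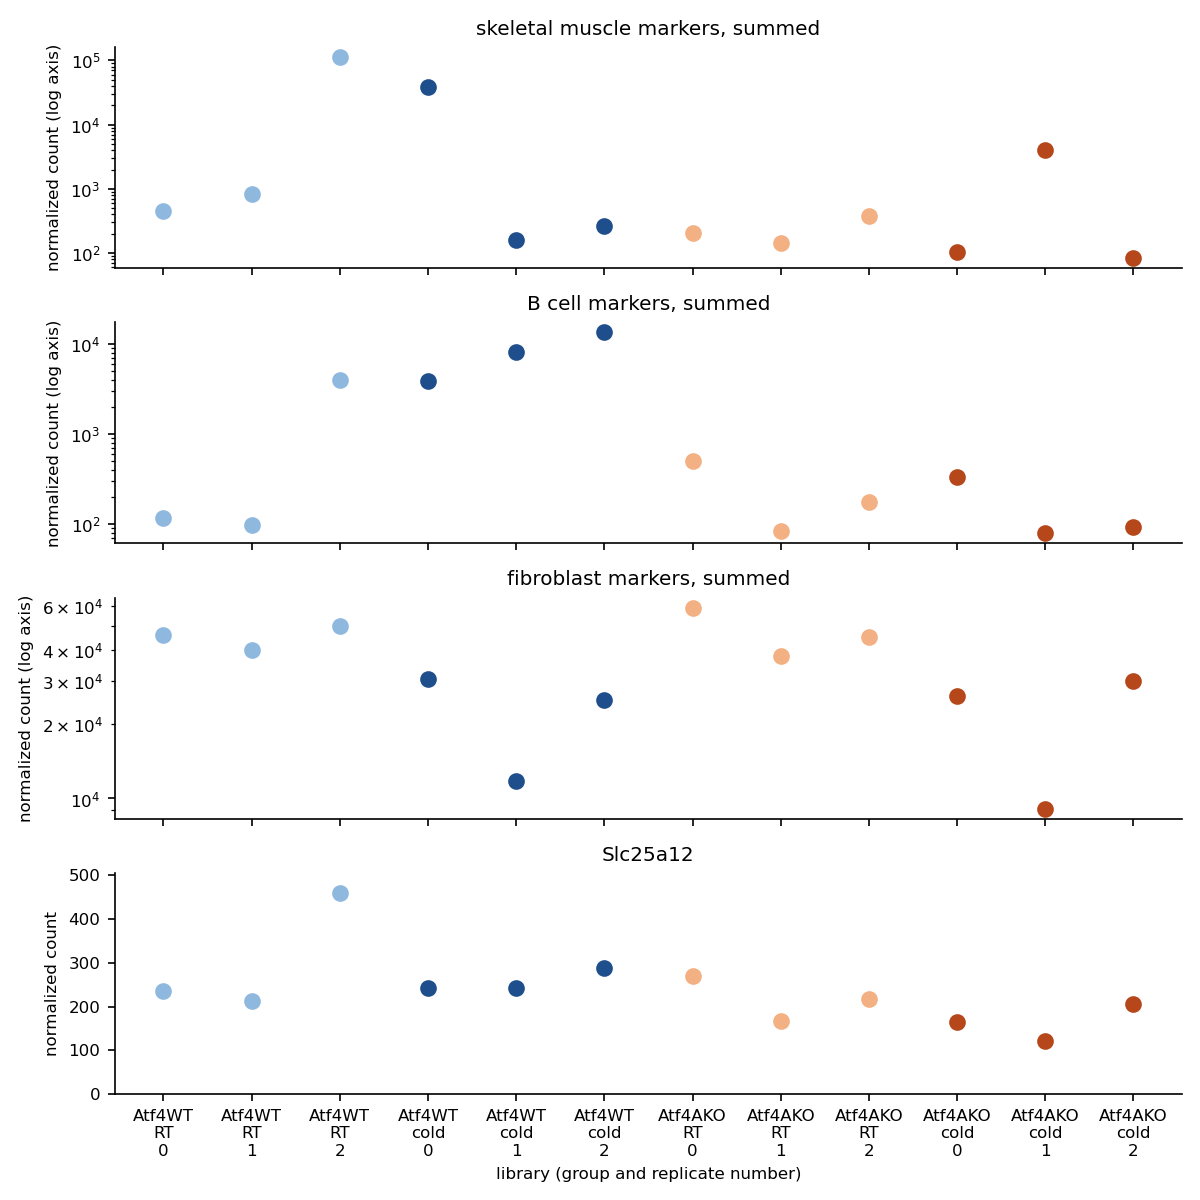
Summed normalized counts of skeletal muscle, B cell and fibroblast markers (log axes) and normalized counts of Slc25a12 (linear axis) in each of the 12 libraries. B cell markers are at 3891 to 13526 in the Atf4WT cold libraries and at 78.2 to 328 in the Atf4AKO cold libraries, and Slc25a12 is highest, at 459, in the library with the most muscle markers.

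The cold responses of the genotypes were compared directly as a difference of differences, Atf4AKO minus Atf4WT. By limma 0 of 40 carriers passed, beside 0% of all genes in either direction. Slc25a23 alone had an unadjusted p under 0.05 (1 higher and 0 lower, beside 1.78% and 5.14% of all genes). With a fold change over 1.5 besides, limma left 0 (beside 0.463% higher and 4.17% lower). edgeR called 0 carriers, and DESeq2 called 0 carriers among 132 genes. Without the 3 muscle-marker libraries, limma called 0 carriers among 270 genes. For Slc25a23 the limma difference was 0.43 (95% interval 0.10 to 0.75, adjusted p = 0.518), with cold libraries under RT libraries in Atf4WT and overlapping in Atf4AKO. The intervals of the other 39 carriers included 0, and the median half-width over the 40 was 0.50 with 3 libraries per group. For the carriers with the largest cold responses the differences were 0.30 for Slc25a34 (95% interval -1.05 to 1.66), 0.17 for Slc25a20 (-0.27 to 0.62) and 0.31 for Slc25a42 (-0.23 to 0.86). The median over the carriers was 0.08 beside 0.03 over all genes, and with 1 library left out it ran from 0.02 (without replicate 1 of Atf4AKO after cold) to 0.16 (without replicate 0 of Atf4AKO after cold).

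**Figure D5:**
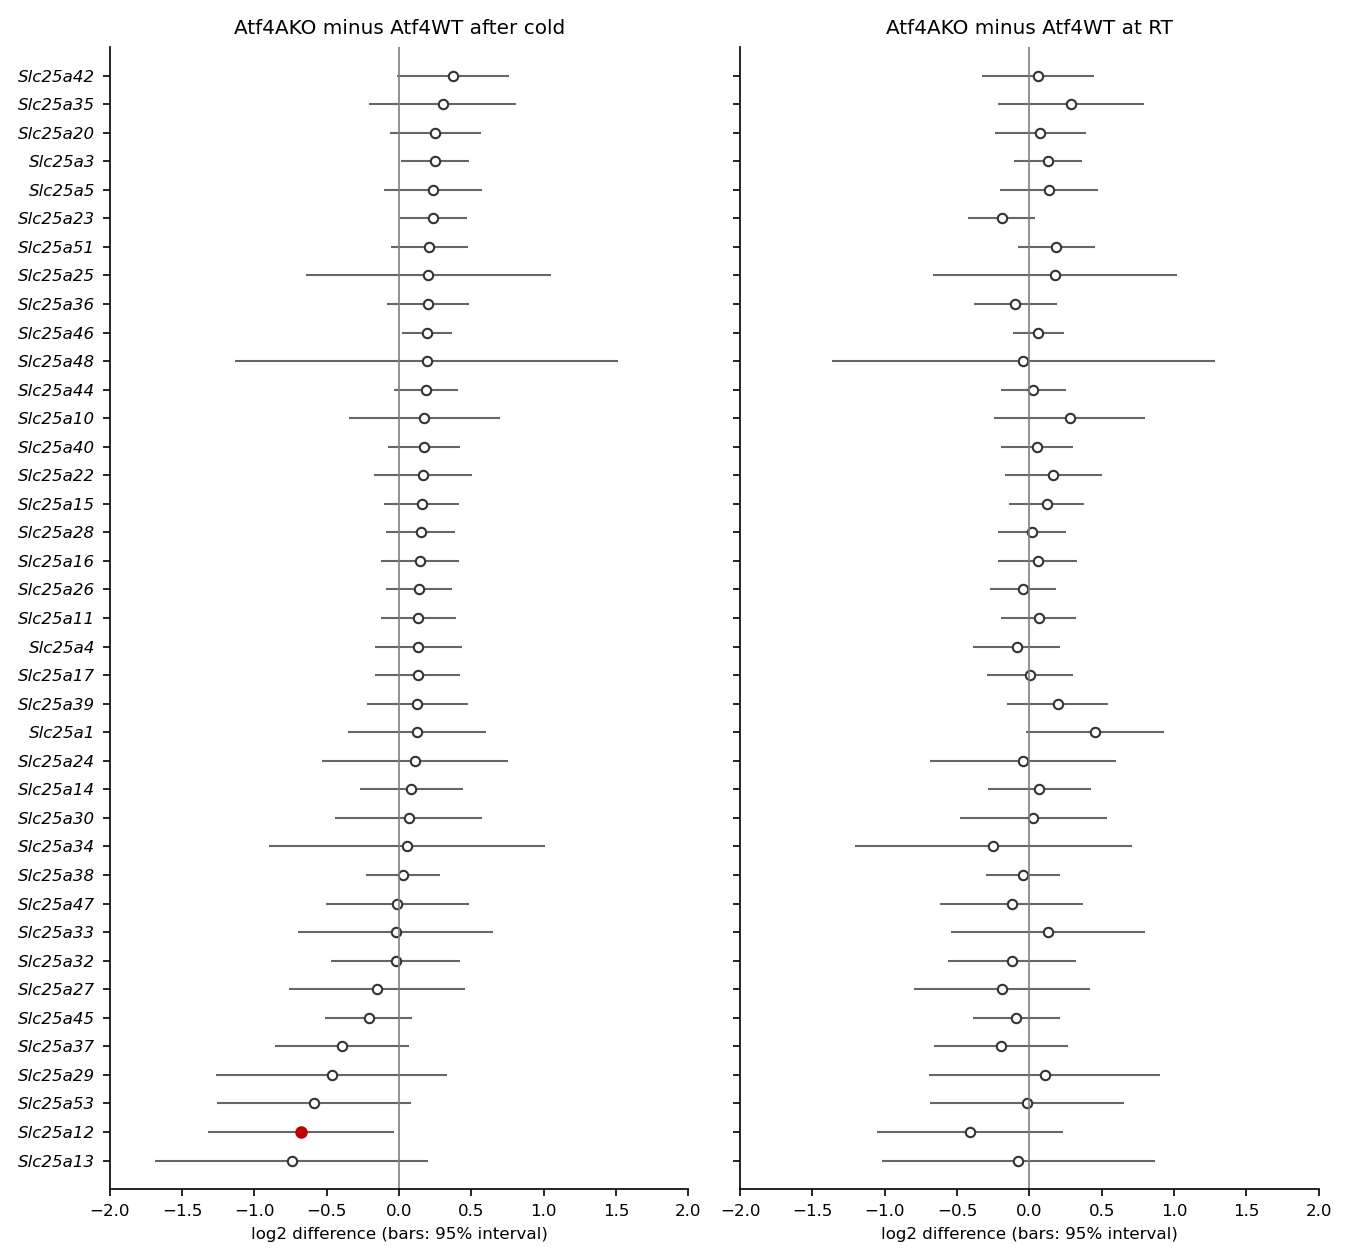
Log2 difference of Atf4AKO minus Atf4WT after cold (left) and at RT (right) for 39 of the 40 tested carriers, with 95% intervals from limma and a red point for a fold change over 1.5 with an unadjusted p under 0.05. Slc25a12 after cold (-0.68) is the one red point.

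Relatives and partners of the carriers moved with cold as well. Among 5 family members with other symbols, 3 were called higher in both genotypes, beside 11.3% of all genes. They were the uncoupling protein Ucp1 (log2 differences of 7.67 and 7.51, Atf4WT and Atf4AKO), Ucp3 (0.97 and 1.39) and the outer membrane protein Mtch2 (0.72 and 0.77). Mtch1 was called lower in Atf4WT (-0.26) and not in Atf4AKO (-0.14), and its difference of the cold responses was 0.12 (adjusted p = 0.9961 by limma). Ucp2 was not called (0.39 and -0.27). Of 21 tested mitochondrial transporters of other families (22 in the list, Mpc1 not listed), 11 were called higher and 2 lower in Atf4WT and 9 higher and 3 lower in Atf4AKO, with medians of 0.32 and 0.38 that lie near the 0.37 and 0.36 of the carriers. Over all genes tested, 17.0% were called higher and 14.9% lower in Atf4WT and 14.8% and 11.0% in Atf4AKO, so the counts of lower transporters lie near the share of all genes. Examples are the pyruvate carrier subunit Mpc2 (1.27 and 1.08), the cation exchanger Letm1 (1.31 and 1.29), the channel Vdac2 (0.69 and 0.76) and, lower, Sfxn4 (-0.79 and -0.43). Of 18 tested enzymes that make or use carried substrates (20 in the list), 11 were called higher and 2 lower in Atf4WT and 11 higher and 1 lower in Atf4AKO, with medians of 0.61 and 0.57. The counts of lower enzymes also lie near or under the share of all genes. They include citrate synthase Cs (0.66 and 0.79) and the glycerophosphate dehydrogenase Gpd2 (1.08 and 1.26), and ornithine aminotransferase Oat was called lower in both genotypes (-0.68 and -0.67). ATP citrate lyase Acly, which uses the citrate that Slc25a1 exports, was not called (0.92 and 0.59). These differences with cold are those of bulk tissue and do not separate fat cells from the other cells.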

How the data were processed

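The deposited table holds the signal of 12 libraries as normalized counts: the authors cleaned reads (SOAPnuke), aligned them (STAR, genome mm10), took per-gene counts of reads with a single alignment (featureCounts) and scaled each library by its size factor (pyDESeq2). From these, reads were recovered by dividing by the value of 1 read, and 100% of values were whole within 0.01 read. limma 3.58.1 (lmFit, eBayes with a trend, R 4.3.3) fitted 4 group means to log2 of the normalized count plus 1 across the 13404 genes averaging at least 10, with adjusted p by Benjamini and Hochberg over all of them. All p and 95% intervals are from limma unless edgeR 4.0.16 (quasi-likelihood) or DESeq2 1.42.0 (Wald), run on the recovered reads, is named.

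Values in each library are given for the 12 carriers with the largest differences among those called with cold in both genotypes, for carriers called between the genotypes, and for the textbook carriers Slc25a4, Slc25a5, Slc25a3, Slc25a1, Slc25a20, Slc25a12, Slc25a13 and Slc25a39; others are given by difference, and any other gene given by library was chosen after its values were seen. Members and lists were chosen with earlier results of these data known. Alternatives were pseudocounts of 0.5 and 5, no filter, a filter of 50, rescaling to the 75th percentile, array weights, a replicate block, a lymphocyte score as a covariate, only the groups compared, edgeR, DESeq2, the other call rule and each library left out; leaving out the libraries high in muscle markers or low in stromal markers was added after seeing the data. No library was left out of the results otherwise.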

Additional observations from a re-analysis of the deposited data

How the results depend on the processing

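Of 382 counts and medians under an alternative, 359 stayed within 1.5 times the reported count or within the spread of replicates and 23 did not. Of 33 calls of single carriers, 23 were kept in every alternative run; over 825 values 781 kept the call, 43 lost it with the same sign and 1 changed sign. Some of these values could not move. A difference stays the same when a library outside the groups compared is left out. It also stays the same with only the groups compared or with a replicate block. In these settings medians and signs cannot change, and only p and the calls can. The numbers kept therefore overstate how far the results were tested. The carriers called higher with cold numbered 10 to 19 in Atf4WT and 13 to 19 in Atf4AKO over the alternatives. The calls over all genes, higher and lower together, moved as well. In Atf4WT, 4273 as reported, they were 3551 without the muscle-marker libraries and 5306 with array weights. In Atf4AKO, 3467 as reported, they were 2228 without the libraries low in stromal markers and 4129 with a replicate block.

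The count of carriers lower with cold in Atf4WT, 1 as reported, was 2 with a replicate block, 0 with the lymphocyte score as a covariate, 0 with the muscle-marker libraries left out, 0 by the other call rule, and 0 to 1 with each library left out. Over all genes the count lower, 2000 as reported, was 2308, 459, 1699 and 1387 under the first 4 of these. The count lower in Atf4AKO than in Atf4WT after cold, 1 as reported, was 0 with array weights, 0 by edgeR, 0 with the libraries low in stromal markers left out, 0 by the other call rule, and 0 to 2 with each library left out; over all genes, 810 as reported, it was 717, 802, 533 and 4 under the first 4. With each library left out, the count higher after cold was 0 to 1, and at RT the counts higher and lower were 0 to 1 each. The counts of 1 higher and 2 lower after cold came without replicate 0 of Atf4AKO after cold. There 65 and 999 of all genes were called, against 48 and 810 as reported. Those of 1 at RT came without replicate 2 of Atf4AKO at RT, with 36 higher and 81 lower over all genes, against 24 and 38 as reported.

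The lymphocyte score as a covariate moved the carriers' median to 0.58 for cold in Atf4WT, to -0.17 between the genotypes after cold and to -0.18 for the difference of the cold responses, and Slc25a12 after cold to 0.47; the cause was not tested, and the score separates the groups. The median for cold in Atf4AKO ran from 0.36 to 0.49 with each library left out. Where a library was left out, 2 remained in its group.

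Same-numbered replicates of different groups correlated at -0.189 to 0.389 over 18 pairs, 8 of them over 0.1. All pairs of replicate 1 lay over 0.1 (0.179 to 0.389). Those of replicate 0 ran from -0.179 to 0.1 and those of replicate 2 from -0.189 to 0.367. A sample correlated best with its own number in 17 of 36 combinations. The correlation did not hold across the numbers, so they were not used as pairs in the main fit, and a replicate block was run as an alternative.

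With 3 libraries per group, the intervals of most differences between the genotypes include 0, and the 4 carriers under the filter enter only the alternative without a filter.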
